A study of Mus musculus with 5 samples.

Results

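Testin, encoded by Tes, and 8 further LIM domain proteins of focal adhesions were followed in mouse thoracic aorta: zyxin (Zyx), Lpp, paxillin (Pxn), Tgfb1i1, Lims1, Lims2, migfilin (Fblim1) and Limd1. Every probe set, a group of short 3′ probes for 1 transcript, was taken that the Mouse Genome 430 2.0 platform annotation assigns to 1 of these genes alone; that gave 26 of 45037 probe sets and 9 of 18193 named genes, with all 9 genes represented. Tes was chosen for its difference between the genotypes in these data, so its values in that comparison are a description and carry no test; the other 8 genes joined it by protein family and location in the cell. RNA was hybridised to 5 Affymetrix arrays. Of these, 3 held RNA from male P467L mice, which carry a dominant negative mutant of human PPAR gamma driven in smooth muscle by the myosin heavy chain promoter of that tissue, and 2 held RNA from male non-transgenic littermates. Both groups were C57BL/6, the labels name no other allele or treatment, and no age was given in the sources used here. Each array carried a pool from 6 to 8 aortas, described by the submitters as a biological replicate. A pool hides differences between animals, and in whole aorta fewer cells of a type and less RNA per cell cannot be told apart.

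Focal adhesions are the plaques where integrin receptors, bound to matrix outside the cell, are joined to actin filaments inside it. LIM domains are zinc-binding folds that hold proteins together at these plaques and along stress fibres, and several LIM proteins, zyxin and testin among them, gather where actin filaments are under tension. In the aortic wall smooth muscle cells carry pulsatile load through such plaques, and Lpp and Tgfb1i1 are known as LIM proteins rich in smooth muscle. Testin has a PET domain before its LIM domains and binds zyxin and the Ena/VASP protein Mena.

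The arrays had median log2 values from 6.17 to 6.23 in P467L and of 6.25 in both non-transgenic samples. Smooth muscle markers stood high in all samples: the linear levels of 8 of 8 measured markers summed to 102066 to 103635 in P467L and 100887 to 101944 in non-transgenic aortas, and no smooth muscle marker lay below the median level of all probe sets. Pparg, read by 1 probe set, measured 7.32, 7.27 and 7.27 in P467L and 7.32 and 6.91 in non-transgenic aortas; as a mouse probe set it may or may not read the human transgene, and it gives no check of the genotype labels. Of the arrays, 2 stood apart. P467L replicate 1 correlated at 0.985 to 0.991 with the others and was lowest in Malat1, a nuclear noncoding RNA, at 8.03 beside 9.69 and 9.87 in the remaining P467L arrays and 9.45 in both non-transgenic ones. Stomach transcripts were read on all arrays and most in non-transgenic replicate 2. Of these, 7 of 7 gastric markers were measured and summed to 4345 to 5416 in P467L, against 2762 and 31867 in non-transgenic replicates 1 and 2. Gkn2 measured 10.23, 10.22 and 10.02 in P467L, against 8.79 and 13.32 in non-transgenic replicates 1 and 2. Member differences are given with 5 arrays, and also without these arrays where that turned a sign or moved a value by over 1.5 times.

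Tes was higher in P467L aortas by both of its probe sets. The brighter one, 1424246_a_at, measured 11.93, 12.02 and 12.01 in P467L replicates 1 to 3, against 10.80 and 10.86 in non-transgenic replicates 1 and 2. The other, 1460378_a_at, measured 11.62, 11.68 and 11.35 in P467L, against 10.16 and 10.12 in non-transgenic aortas. All P467L arrays lay above both non-transgenic arrays in each probe set, with a gap wider than the spread inside either group. By the brighter probe set the P467L mean was 11.99 ± 0.05 (SD, n = 3), against a mean of 10.83 ± 0.04 (SD, n = 2) for non-transgenic littermates, and the difference was 1.16 (SE 0.05, 95% interval 1.03 to 1.29), or 2.23-fold. The other gave a P467L mean of 11.55 ± 0.18 (SD, n = 3), against 10.14 ± 0.03 (SD, n = 2) for the littermates, and a difference of 1.41 (SE 0.12, 95% interval 1.10 to 1.72), or 2.66-fold. These intervals make no allowance for the choice of Tes by this difference. The intervals overlap, and the difference between the probe sets was not tested. They were designed from different cDNA records, BC003808 and BC010465, and carry the suffix that marks probes shared by several transcripts of 1 gene, so they cannot tell testin isoforms apart. Leaving out 1 array at a time moved the difference only between 1.13 and 1.19 for the brighter probe set and between 1.34 and 1.51 for the other. Without both arrays that stand apart it was 1.22 and 1.36.

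The start of Tes lies in a GC-rich stretch with no match to the nuclear receptor core element in the searched window. RefSeq windows of 300 bases, from 250 before to 50 after an annotated start in GRCm38.p6, were searched on both strands. The GC box was searched as GGGCGG and the box bound by NF-Y as CCAAT. The core element of nuclear receptor sites, those of PPAR gamma included, was searched as AGGTCA, the TEAD site as CATTCC, and the binding element of serum response factor, the CArG box, as its degenerate letter pattern. No match overlapped another in the windows shown. Windows of Tes, Zyx, Lpp, Lims1 and Fblim1 were searched, 9 windows in all. Pxn, Tgfb1i1, Lims2 and Limd1 were not searched, so the counts below leave these 4 members out. The Tes window is shown because Tes carries the largest difference among the members, and the Zyx window because zyxin is the binding partner of testin and its gene lies on the same chromosome. Capitals mark a match to any of these motifs on either strand.
Tes, chr6:17064899-17065198, plus strand: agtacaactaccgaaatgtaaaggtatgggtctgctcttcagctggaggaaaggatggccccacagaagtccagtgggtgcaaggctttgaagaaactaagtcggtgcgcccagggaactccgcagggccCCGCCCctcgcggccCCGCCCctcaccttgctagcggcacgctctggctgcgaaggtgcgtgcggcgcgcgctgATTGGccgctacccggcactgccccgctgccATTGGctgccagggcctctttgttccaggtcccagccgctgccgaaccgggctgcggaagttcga
Zyx, chr6:42349578-42349877, plus strand: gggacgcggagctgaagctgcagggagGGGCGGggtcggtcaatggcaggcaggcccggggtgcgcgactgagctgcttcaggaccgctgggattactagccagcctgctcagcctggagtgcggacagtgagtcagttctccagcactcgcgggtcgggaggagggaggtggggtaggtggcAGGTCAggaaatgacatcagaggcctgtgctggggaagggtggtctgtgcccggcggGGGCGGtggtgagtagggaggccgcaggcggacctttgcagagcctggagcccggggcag
The Tes window was 64.7% G and C and held 2 GC boxes and 2 CCAAT boxes; the Zyx window was 68.3% G and C and held 2 GC boxes, no CCAAT box and 1 AGGTCA. GC boxes occur in 35.7% and CCAAT boxes in 37.4% of all 32851 RefSeq windows. AGGTCA was also found in both Fblim1 windows and in 1 of 2 Lpp windows, and occurs in 16.3% of all windows; TEAD sites, in 14.7% of all windows, were in 1 Fblim1 and 1 Lpp window. No CArG box, which 1.63% of all windows hold, was in any of the 9. These are matches of letters and no evidence of binding.

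**Figure D1:**
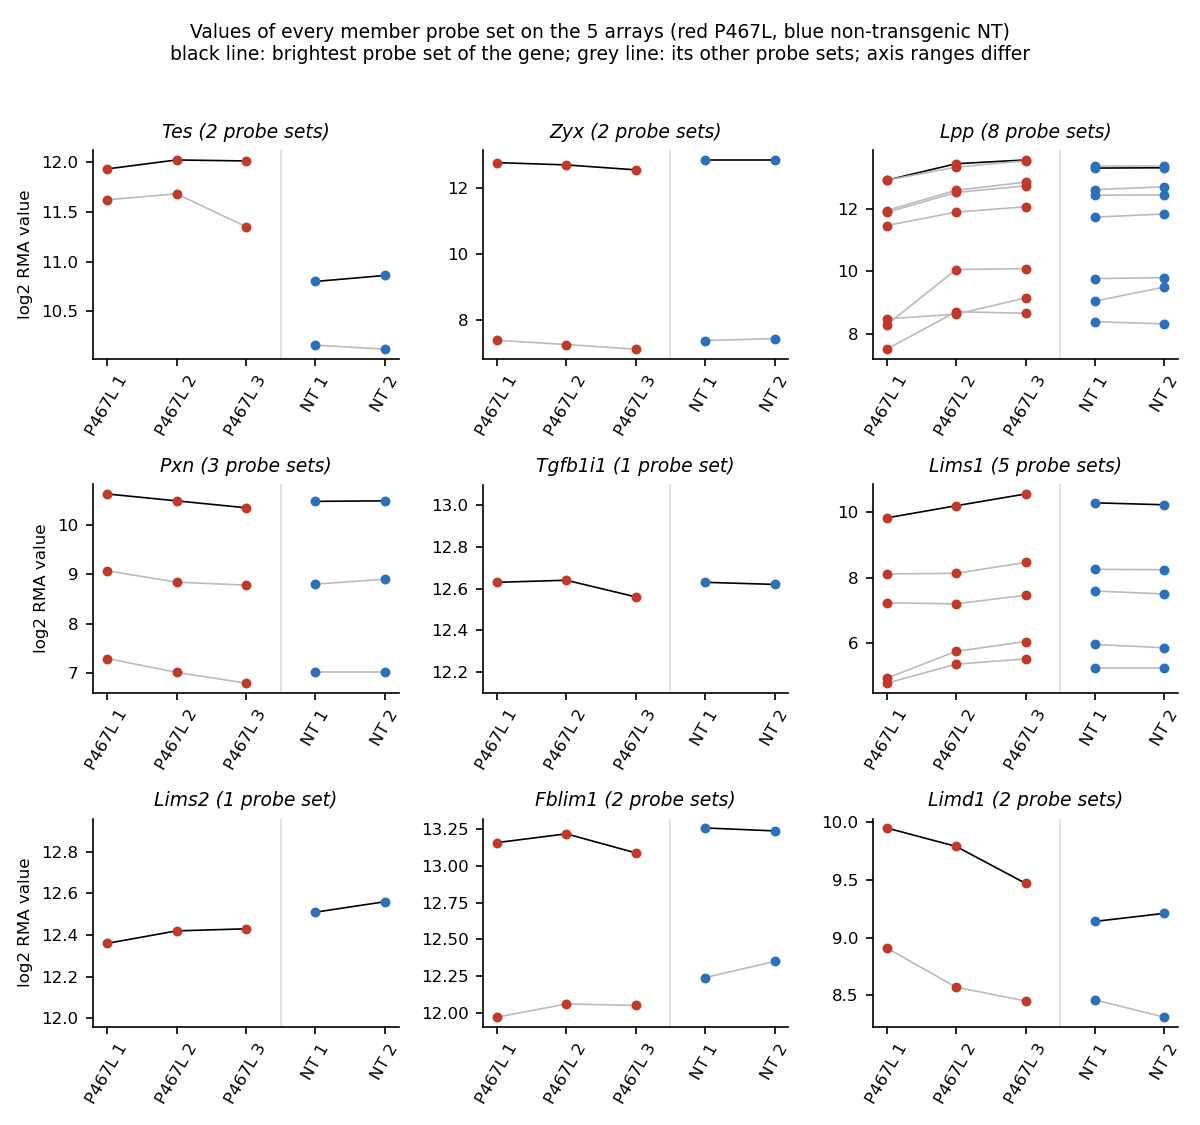
Log2 values (y axis) of each of the 26 probe sets on the 3 P467L arrays (red, left) and the 2 non-transgenic arrays (blue, right), with a panel per gene and its own axis range; lines join the values of 1 probe set within a group, black for the brightest probe set of a gene, and mark no order of the arrays. In the Tes panel the red points of each probe set lie above its blue points, and in the Lpp panel P467L replicate 1 is the lowest red point of every line.

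The differences of the other members were all smaller than those of Tes, and limma called none of the members. Adjusted over all probe sets at 0.05, limma called 0 of 45037 probe sets (0%), the members included; the smallest adjusted p of any probe set was 0.0953. At an unadjusted p of 0.05 it took 3353 probe sets (7.44%; 4.71% higher and 2.74% lower in P467L). Of the 24 member probe sets other than those of Tes, 3 were among them, from Limd1 (higher), Lims2 and Fblim1 (both lower). Groups had ranges apart in 6 of those 24, 1 higher and 5 lower in P467L, where 18.9% of all probe sets had ranges apart, 11.2% higher and 7.61% lower. For the 24 probe sets the median difference was -0.06, with 6 higher and 18 lower. Over all probe sets the median was 0.00, with 21993 higher and 22171 lower. Without P467L replicate 1 the sign differed in 12 of the 24, all from Lpp, Lims1 and Pxn, so the split depends on that array. The members overlap in what they read: 3 Lims1 probe sets, both Fblim1 and both Limd1 probe sets come from a shared cDNA record each, so probe sets of 1 gene are not separate evidence.

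Zyxin, the LIM protein that recruits Ena/VASP proteins to strained stress fibres, had differences too small for the test to separate from the spread of the arrays. Its bright probe set 1417240_at measured 12.78, 12.71 and 12.56 in P467L, against 12.86 in both non-transgenic aortas. Every P467L array lay below the non-transgenic ones, yet the P467L values spread over a wider range than the mean difference, which was -0.18 (SE 0.08, 95% interval -0.39 to 0.03; limma adjusted p = 0.753). The dimmer probe set 1438552_x_at, whose suffix marks probes that may bind other transcripts, gave -0.15 (SE 0.09) with ranges that overlapped. Both had their lowest value in P467L replicate 3; without that array the differences were -0.12 and -0.08.

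Lpp, a zyxin relative abundant in smooth muscle, was read by 8 probe sets, and in all 8 its lowest value of the 5 arrays was in P467L replicate 1. The brightest, 1455314_at, measured 12.91, 13.44 and 13.56 in P467L, against 13.30 and 13.31 in non-transgenic aortas. P467L replicate 1 was below the non-transgenic arrays there and the other P467L arrays above them, so the mean difference was -0.0017 (SE 0.22, 95% interval -0.60 to 0.59; limma adjusted p = 1.000). The widest gap was in 1425673_at, at 8.28, 10.05 and 10.08 in P467L and 9.76 and 9.79 in non-transgenic aortas. With 5 arrays the differences of the 8 probe sets ran from -0.52 to 0.02, 7 of them lower. Without P467L replicate 1 they ran from -0.38 to 0.33 and 7 of the 8 were higher, so the direction of Lpp rests on that array, which was also the lowest in Malat1; the part of RNA quality in this was not tested. The exception was 1438271_at, lower either way, at 8.47, 8.62 and 9.14 in P467L and 9.04 and 9.49 in non-transgenic aortas, with ranges that overlapped. Its difference of -0.52, the lowest of the 8, was -0.30 without non-transgenic replicate 2 and -0.16 without both arrays that stand apart. Over all probe sets, P467L replicate 1 was the lowest of the 5 arrays in 20.1%.

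Paxillin, a scaffold of the adhesion plaque, and Tgfb1i1, a paxillin relative that shuttles between adhesions and the nucleus as a coactivator, showed small differences. The brightest Pxn probe set, 1456135_s_at, measured 10.63, 10.49 and 10.35 in P467L, against 10.48 and 10.49 in non-transgenic aortas. P467L arrays lay on both sides of the non-transgenic ones, with a difference of 0.005 (SE 0.09, 95% interval -0.25 to 0.26; limma adjusted p = 1.000). The 3 Pxn probe sets gave 0.005 to 0.047 with 5 arrays and -0.11 to -0.04 without P467L replicate 1, where each had its highest value, and -0.11 to 0.01 without both arrays that stand apart. Tgfb1i1 measured 12.63, 12.64 and 12.56 in P467L, against 12.63 and 12.62 in non-transgenic aortas, by its 1 probe set. Its difference of -0.015 had the narrowest interval of the brightest probe sets of the members, -0.13 to 0.10 (limma adjusted p = 0.940); with each array centred on its median it was 0.025, and without both arrays that stand apart -0.03.

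Lims1 and Lims2 encode the PINCH adaptors, made of LIM domains in a row, which tie integrin-linked kinase to the plaque. Lims2 measured 12.36, 12.42 and 12.43 in P467L, against 12.51 and 12.56 in non-transgenic aortas. All P467L arrays were below both non-transgenic ones, by little: -0.13 (SE 0.04, 95% interval -0.25 to -0.02; limma adjusted p = 0.602). It was -0.085 without both arrays that stand apart and -0.092 under median centring. Lims1 had no shared direction among its 5 probe sets once P467L replicate 1 was left out, and 2 of the 5 lay below the median level of all probe sets. Its brightest, 1418232_s_at, measured 9.83, 10.20 and 10.56 in P467L, against 10.29 and 10.23 in non-transgenic aortas, a difference of -0.06 (SE 0.23; limma adjusted p = 0.956). Ranges were apart in 1 of the 5, 1418230_a_at, at 7.24, 7.21 and 7.47 in P467L and 7.60 and 7.51 in non-transgenic aortas (-0.25, SE 0.10; limma adjusted p = 0.709). The 5 differences ran from -0.33 to -0.01 with all arrays, and without P467L replicate 1, the lowest of the 5 arrays in 4 of them, from -0.22 to 0.19 with 3 higher.

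Fblim1 encodes migfilin, which links filamin and kindlin at adhesions, and both of its probe sets were lower in every P467L array. The brighter, 1449141_at, measured 13.16, 13.22 and 13.09 in P467L, against 13.26 and 13.24 in non-transgenic aortas, and differed by -0.09 (SE 0.05; limma adjusted p = 0.784). The other, 1418569_at, measured 11.97, 12.06 and 12.05 in P467L, against 12.24 and 12.35 in non-transgenic aortas. There the gap exceeded the spread of either group, at -0.27 (SE 0.06, 95% interval -0.42 to -0.12; limma adjusted p = 0.445). Both probe sets come from the same record, and no array that was left out turned either sign. Without both arrays that stand apart the second difference was -0.185. The first was -0.053 under median centring of the arrays.

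Limd1, a member of the Ajuba subfamily that restrains LATS kinases of the Hippo pathway, was the only member beside Tes with higher ranges in P467L. Its brighter probe set, 1422731_at, measured 9.95, 9.79 and 9.47 in P467L, against 9.14 and 9.21 in non-transgenic aortas. The P467L values did not overlap the others, and their own spread was wide: the difference was 0.56 (SE 0.16, 95% interval 0.13 to 0.99; limma adjusted p = 0.546), or 1.48-fold. The dimmer probe set, 1422730_at, measured 8.91, 8.57 and 8.45 in P467L, against 8.46 and 8.31 in non-transgenic aortas, with overlapping ranges and a difference of 0.26 (SE 0.16; limma adjusted p = 0.784). P467L replicate 1 was the highest array in both, and without it the differences were 0.46 and 0.12. Without both arrays that stand apart they were 0.49 and 0.05, so little was left of the dimmer probe set's difference.

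**Figure D2:**
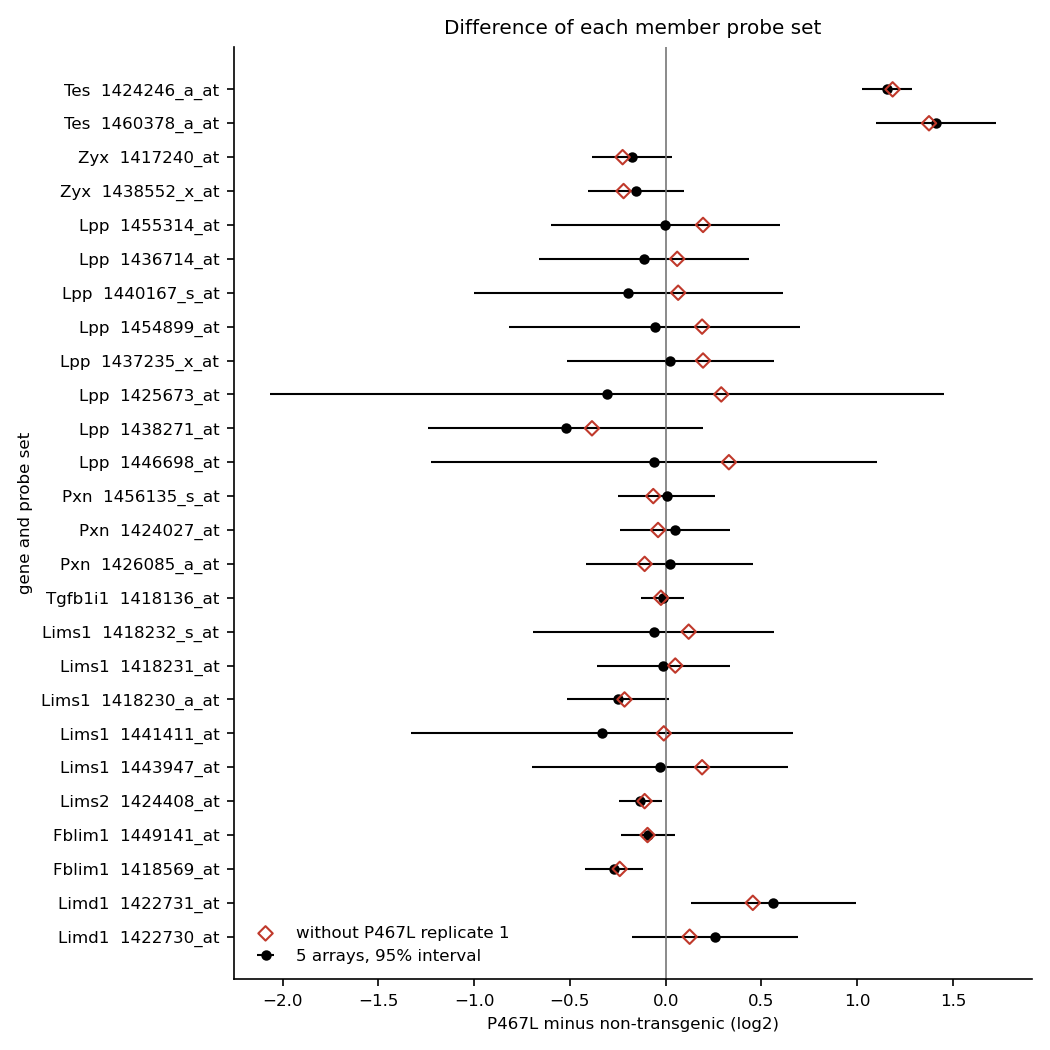
Difference of P467L minus non-transgenic aortas on the log2 scale (x axis) for each of the 26 probe sets (y axis); black points and bars give the value and 95% interval with 5 arrays, and open red diamonds the value without P467L replicate 1. The Tes probe sets lie at 1.16 and 1.41, and the diamonds of 7 of 8 Lpp probe sets fall to the right of 0 while 7 of 8 black points fall to its left.

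Related proteins were read from lists, with 1 value per gene from its brightest probe set, and limma called 0 of their genes after adjustment over all probe sets. Over 18193 genes the median difference was 0.02, 9.45% passed an unadjusted p of 0.05 (6.94% higher, 2.51% lower) and 22.7% had ranges apart, 16.1% higher and 6.55% lower. In the zyxin family beyond the members, Wtip, an Ajuba relative, measured 0.51 (SE 0.09; limma adjusted p = 0.378) with every P467L array higher, Trip6 measured 0.06 (SE 0.05) and Ajuba -0.11 (SE 0.26). With all arrays Wtip and Limd1 thus had the largest differences of this family, and neither passed the adjusted test. Without both arrays that stand apart Ajuba was at -0.415, beside Wtip at 0.405 and Limd1 at 0.49. In that fit Ajuba differed by slightly more than Wtip and in the opposite direction, so the ranking depends on those arrays. Of the proteins that share the PET domain with testin, Prickle2 measured 0.36 (SE 0.04; limma adjusted p = 0.209), Prickle1 0.11 (SE 0.07) and Lmcd1 -0.30 (SE 0.09; limma adjusted p = 0.561); the groups did not overlap in any of these 3, with Prickle1 and Prickle2 higher and Lmcd1 lower in P467L. Over these 3 genes the median was 0.11 by the brightest probe sets and 0.0106 with all probe sets of a gene. Without both arrays that stand apart Prickle1 was at 0.075. Prickle proteins act in planar cell polarity and Lmcd1 is a transcriptional cofactor of cardiac and smooth muscle.

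The list of Ena/VASP proteins and actin crosslinkers, which also held profilin, cortactin and Fhl2, had a median of 0.13 over 8 genes, 7 higher and 1 lower. Of these, 2 passed an unadjusted limma p of 0.05, beside 9.45% of all genes. Ranges were apart in 4, all higher, where 16.1% of all genes had higher ranges in P467L. Evl, an Ena/VASP protein, measured 0.46 (SE 0.12; limma adjusted p = 0.536), profilin (Pfn1) 0.20 (SE 0.09), the LIM protein Fhl2 0.18 (SE 0.09) and cortactin (Cttn) 0.17 (SE 0.06); without both arrays that stand apart Pfn1 was at 0.105. Vasp measured 0.09 (SE 0.06) and the α-actinins Actn1 and Actn4 0.03 (SE 0.04) and 0.02 (SE 0.08). Mena itself (Enah), which testin binds, measured -0.03 (SE 0.13). Without both arrays that stand apart the signs of Enah and Actn4 turned, to 0.075 and -0.055. The PINCH complex had a median of -0.01 over 7 genes, 3 higher and 4 lower, with 0 at an unadjusted p of 0.05. Integrin-linked kinase (Ilk) measured -0.12 (SE 0.04), its partners Parva 0.0017 (SE 0.04), Parvb 0.04 (SE 0.13), Parvg -0.11 (SE 0.10) and Rsu1 -0.01 (SE 0.06), and the adaptors Nck1 and Nck2 0.14 (SE 0.13) and -0.20 (SE 0.09). Without both arrays that stand apart the signs of Parva and Parvb turned, to -0.035 and -0.07. In that fit Parvg was at -0.22, Rsu1 at -0.04 and Nck1 at 0.265. Ilk was lower in every P467L array, as Lims2 was, and both differences were small.

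Of 34 focal adhesion core genes 30 were measured, with a median of 0.03, 17 higher and 13 lower; 7 passed an unadjusted p of 0.05, 6 higher and 1 lower. The 4 brightest were filamin A (Flna) at 0.03 (SE 0.04), the integrin Itga8 at -0.12 (SE 0.07), tensin 1 (Tns1) at -0.17 (SE 0.05) and vinculin (Vcl) at -0.01 (SE 0.04). Without both arrays that stand apart the sign of Vcl turned, to 0.015, and Flna was at 0.02 and Itga8 at -0.08. At the ends of the range stood the collagen-binding integrin Itga1 at 0.64 (SE 0.13; limma adjusted p = 0.445) and the actin-binding protein Nexn at -0.46 (SE 0.52), whose difference was 0.02 without P467L replicate 1. Other LIM proteins of muscle and cytoskeleton had a median of 0.02 over 28 of 29 genes, 16 higher and 12 lower, 3 at an unadjusted p of 0.05. The 4 brightest were Csrp2 at 0.18 (SE 0.06), Fhl1 at -0.08 (SE 0.05), Crip1 at 0.18 (SE 0.07) and Csrp1 at 0.11 (SE 0.04); without both arrays that stand apart Csrp2 was at 0.075, Fhl1 at -0.025 and Crip1 at 0.09. The range ran from Ldb3, a Z-disc protein, at -0.39 (SE 0.07) to Micall2 at 0.27 (SE 0.21). Hippo kinases and YAP/TEAD targets had a median of -0.05 over 17 of 18 genes, 7 higher and 10 lower, 4 at an unadjusted p of 0.05. Ccn1, a secreted matrix protein and YAP target, measured -0.68 (SE 0.13; limma adjusted p = 0.421) and Tead2 0.46 (SE 0.11; limma adjusted p = 0.487), the ends of that range. Beside Ccn1, its 4 brightest held Ccn2 at 0.12 (SE 0.04), the receptor Axl at -0.12 (SE 0.05) and Wwtr1, the YAP relative TAZ, at -0.29 (SE 0.08).

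**Figure D3:**
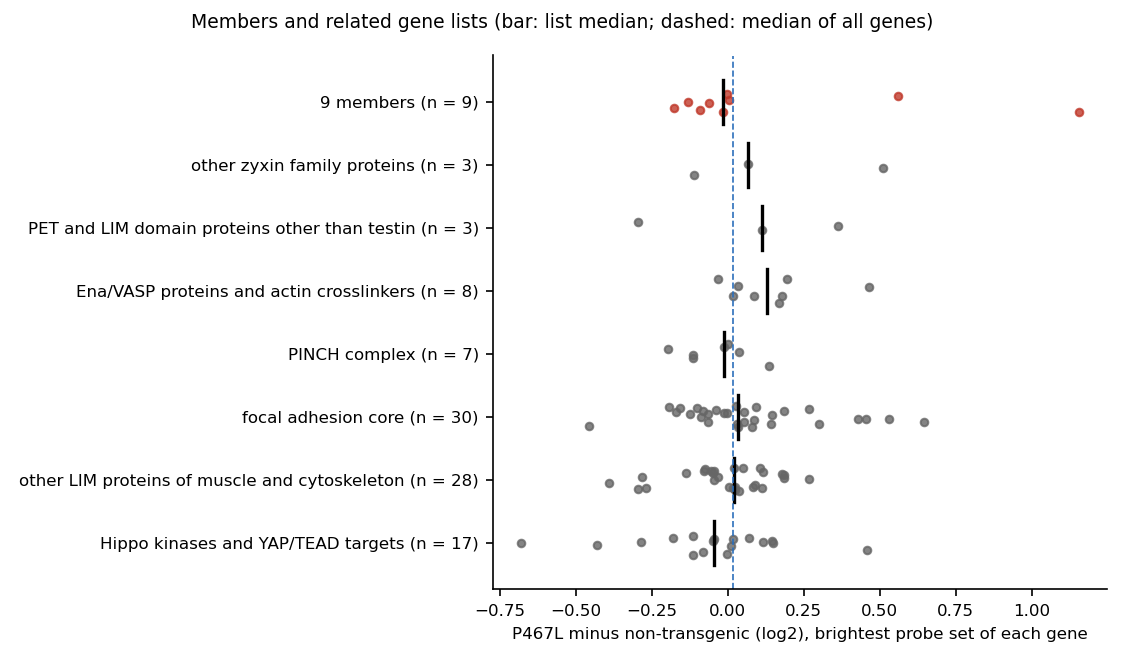
Difference of P467L minus non-transgenic aortas on the log2 scale (x axis) for each gene of the 9 members and of 7 related lists (y axis), read from its brightest probe set; points are genes, black bars list medians and the dashed line the median of all genes, 0.02. Tes, chosen for its difference, lies at 1.16, to the right of all genes shown, beyond Itga1 at 0.64.

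No measured neighbour of Tes on chromosome 6 had a difference as large as its own. Because Tes was chosen for its difference, this is a description and no test. On each side the 4 nearest protein-coding genes with a probe set were read, in the gene order of GRCm38.p6: Ppp1r3a, Foxp2, Mdfic and Tfec before Tes, and Cav2, Cav1, Met and Capza2 after it. Their differences ran from -0.35 (SE 0.40) for Foxp2 to 0.12 (SE 0.10) for Mdfic, 2 higher and 6 lower, with limma calling 0 of the 8 after adjustment and 1, Cav1, at an unadjusted p of 0.05. Without P467L replicate 1 the split was 4 higher and 4 lower, from -0.25 to 0.16: Foxp2, lowest on that array at 9.64, then differed by 0.01 and Cav2 by 0.04. Cav2, next to Tes and encoding a partner of caveolin-1, measured 11.43, 11.87 and 12.14 in P467L, against 11.93 and 12.00 in non-transgenic aortas, with overlapping ranges (-0.15, SE 0.23). Cav1, the caveola coat protein, measured 13.07, 13.11 and 13.11 in P467L, against 13.35 and 13.37 in non-transgenic aortas. Its P467L arrays were all lower, at -0.26 (SE 0.03; limma adjusted p = 0.279), the opposite direction to Tes. Tfec on the other side measured 4.66, 4.66 and 4.98 in P467L, against 4.66 in both non-transgenic aortas, below the median level of all probe sets.

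**Figure D4:**
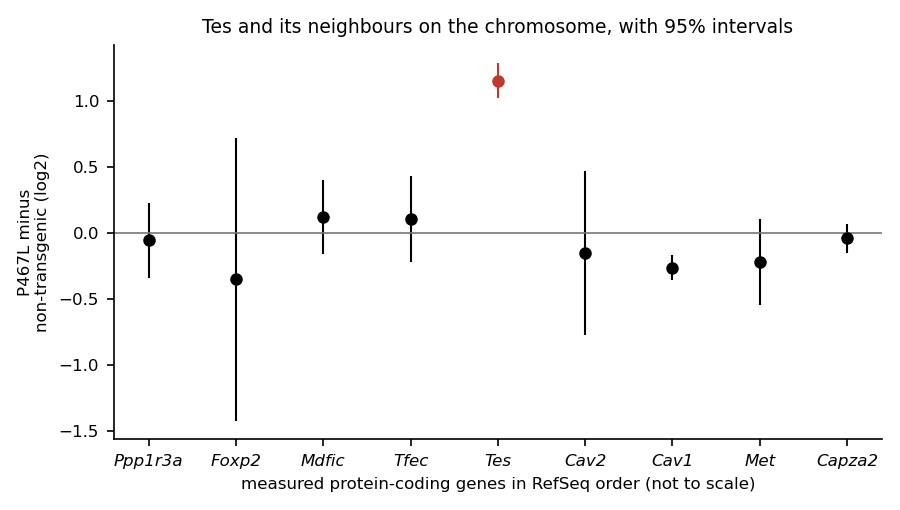
Difference of P467L minus non-transgenic aortas on the log2 scale (y axis) for Tes (red) and the 4 nearest measured protein-coding genes on each side (black), in gene order and not to scale (x axis), from the brightest probe set with 95% intervals. Tes, chosen for its difference, stands at 1.16, above intervals that include 0 for 7 of its 8 neighbours. Cav1 at -0.26 lies below 0.

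The genes whose values ran most like Tes over the 5 arrays were Lgals3, Bex4, Arc, Plat and Rarres1. Likeness was the root mean square difference between log2 values centred on each gene's mean, over 18192 other genes; it was 0.08 for Lgals3 and Bex4, 0.09 for Arc and 0.10 for Plat and Rarres1. Lgals3, which encodes galectin-3, measured 10.49, 10.45 and 10.33 in P467L, against 9.17 and 9.32 in non-transgenic aortas. Plat, tissue plasminogen activator, measured 11.45, 11.25 and 11.37 in P467L, against 10.28 and 10.22 in non-transgenic aortas. All 5 were chosen by this likeness, so their differences, 0.99 to 1.18, are a description. Galectin-3 is also abundant in macrophages, and the 8 of 8 measured macrophage markers summed to 6938 to 8949 in P467L and 6608 to 6765 in non-transgenic aortas; their part in these values was not tested. Of the other members Limd1 was nearest to Tes, at 0.34, and the remaining 7 lay at 0.58 to 0.66. Tes varied mostly between the genotypes, so this distance largely restates the size of each gene's own difference.

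**Figure D5:**
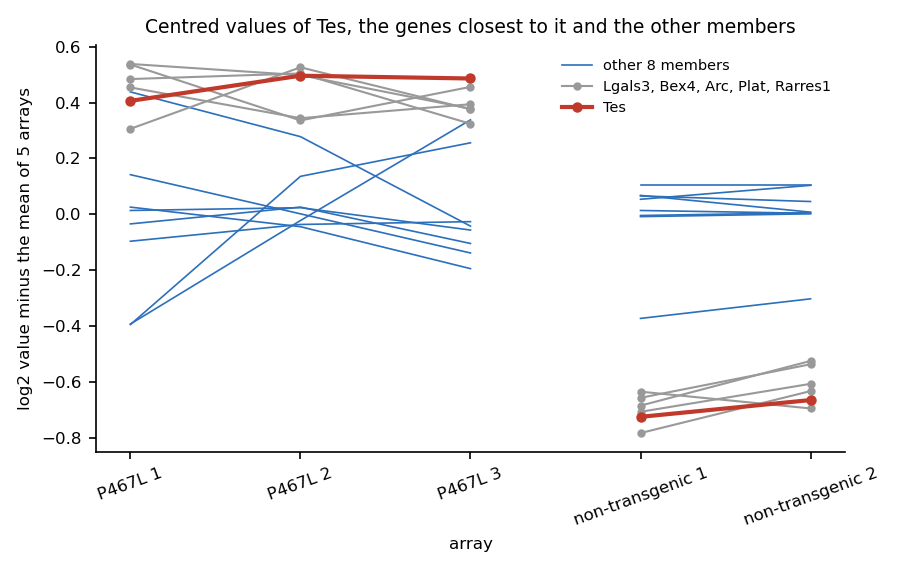
Log2 values minus the mean of the 5 arrays (y axis) on the 3 P467L arrays (left) and the 2 non-transgenic arrays (right) for Tes (red), the 5 genes closest to it (grey) and the other 8 members (blue), from the brightest probe set of each; lines join 1 gene's values within a group. Tes and the grey genes are above 0 on all P467L arrays and below it on both non-transgenic ones, and the blue line that starts high on the left is Limd1.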

How the data were processed

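RNA of 5 thoracic aorta pools, 3 P467L and 2 non-transgenic by the genotype label, was measured on Affymetrix arrays. Per the submitters' processing notes the authors used RMA and Affymetrix Power Tools (versions: not given in the sources used here), and the deposited values are on a log2 scale. RMA gives all arrays a common distribution, which takes away any shift that most transcripts share, and saturation can hide differences of the brightest probe sets. Values ran from 3.03 to 14.99 and carry no counts, so the number of arrays limits the precision; no detection calls or scan dates were used here.

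Probe sets were named from the platform annotation with symbols updated through NCBI gene numbers: of 45037 probe sets 34945 had 1 gene, 932 several and 9160 none in the table, and 64 Affymetrix controls were left out. The test was limma's moderated two-sided test (version 3.58.1, R 4.3.3, no covariate, 4.23 degrees of freedom) of P467L minus non-transgenic, adjusted by Benjamini-Hochberg across the 45037 probe sets at a threshold of 0.05. SEs and 95% intervals come from the moderated fit and are not adjusted for the many probe sets. The script was tested on simulated data.

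The members and lists were chosen with earlier results of these data known. Named were every member probe set, every gene of lists with up to 10 measured genes, and of longer lists the 4 brightest and both ends of the range. The neighbours and the 5 genes most like Tes followed fixed rules. Promoter windows are from RefSeq, GRCm38.p6. Alternatives were a replicate block, 2 scalings, 2 level filters, a robust variance trend, array weights, control probe sets, 1 probe set per gene and each array left out. A fit without both arrays that stand apart and gene-by-gene weights were chosen after seeing the data.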

Additional observations from a re-analysis of the deposited data

How the results depend on the processing

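Adjusted over all probe sets, limma called 0 of 45037 in the fit as reported, with 3353 at an unadjusted p of 0.05, and 0 whichever array was left out, with 2206 to 4808 at an unadjusted p of 0.05; where 1 non-transgenic array is left, it is assumed to vary like the P467L arrays. With each array centred on its median it called 15, among them 1 member probe set, the brighter of Tes, and with 1 probe set per gene 10 of 18193, again with 1 of the members, Tes. With array weights 2245 were called and 4 of the members, both of Tes, 1 of Fblim1 and 1 of Limd1; that estimate did not converge and gave P467L replicate 2 a weight of 34.1 beside 0.15 to 0.90 for the others. The gene-by-gene weights gave 283 and 2 of the members, both of Tes. Since Tes was chosen for this contrast, its place in these counts is a description and supports nothing. The replicate number as a block called 0 probe sets and 0 members. Same-numbered arrays deviated together at 0.11 and 0.01 over probe sets, with only 2 pairs. The 2 non-transgenic arrays deviate from their mean by mirrored amounts, so these values cannot show whether same-numbered arrays were paired. By the labels the samples share only a number. Under the block the median of the focal adhesion core list was 0.00 and that of other LIM proteins 0.0325.

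The differences of both Tes probe sets stayed positive in all alternatives, between 1.12 and 1.22 for the brighter and 1.34 and 1.54 for the other. Of the 24 other member probe sets, the sign differed in 12 without P467L replicate 1, 11 without both arrays that stand apart, 4 with median centring, 3 with a second quantile normalization, 2 with the block, 8 with array weights, 9 with gene-by-gene weights and 1 to 3 with another array left out, all in Lpp, Lims1, Pxn and Tgfb1i1. List medians moved by more than their spread between arrays in these cases. The Ena/VASP list had 0.168 with median centring, 0.0887 with quantile normalization and 0.0925 to 0.158 with an array left out. The focal adhesion core had 0.0725 with centring, 0.0117 with quantile normalization, 0.0207 with array weights, 0.025 with gene-by-gene weights, 0.021 with all probe sets of a gene and 0.00 to 0.04 with an array left out. Other LIM proteins had 0.06 with centring, 0.00483 with quantile normalization, -0.0025 without both arrays and -0.005 to 0.0325 with an array left out. The Hippo list had 0.02 without both arrays and -0.07 to 0.005 with an array left out, and the PET list 0.0106 with all probe sets of a gene. The cause was not tested.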
